A study of Mus musculus with 12 samples.

Results

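Autophagy is the route by which a cell wraps part of its own contents in a membrane and hands it to the lysosome for digestion, and in skeletal muscle it removes worn mitochondria and protein during fasting, disuse and disease. A kinase complex around Ulk1 starts the process, a lipid kinase complex with Becn1 and Atg14 marks the membrane, linked conjugation systems attach proteins of the ATG8 family (the LC3 and GABARAP proteins) to it, and cargo receptors such as Sqstm1 tie the cargo to those proteins. The transcription factors Tfeb and Tfe3, and in muscle the FoxO factors, are known regulators of these genes and of lysosomal enzymes.

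The 34 genes described here are a list of autophagy and lysosome genes, taken by symbol: every row of the RNA table with one of the 34 symbols, of 20194 genes in all, and every chromatin peak named for one of them, which gave 87 of 38244 peaks. The genes were chosen with earlier results of these data known. The RNA came from muscle of C57BL/6 mice, with 3 libraries from mice injected under the skin with 500000 Lewis lung carcinoma (LLC) cells, tissue being taken on day 22, and 3 from mice given PBS. The chromatin data are ATAC-seq, in which a transposase cuts accessible DNA, from C2C12 cells, a mouse line of C3H origin that fuses into myotubes. Of these cells 3 libraries were made after culture for 24 hours in conditioned medium of Colon-26 (C26), a mouse line of colon carcinoma, and 3 from controls. The muscle is not named in the labels, the tumours of the mice and of the cultures differ, and the labels call the cultured cells myoblasts although the sample titles name myotubes. Nothing in the labels ties the libraries to separate animals or cultures, so the p-values measure the spread between these libraries, which may be technical.

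The RNA libraries held 17.0 to 20.1 M tags (M, 10 to the power of 6), as inferred from the values, and the ATAC libraries 10.1 to 18.2 M, per the headers. Markers of muscle fibres were high in every RNA library, their FPKM (fragments per kilobase of gene and M tags) summing to 40530 to 47395 in LLC muscle and 35741 to 43652 in PBS muscle over 10 genes. Markers of other cells varied widely between the libraries of each group. Summed FPKM ran from 181 to 10337 in LLC muscle and from 122 to 11728 in PBS muscle for 7 neutrophil and marrow genes, and for 5 erythroid genes from 34.02 to 243 in LLC muscle and from 16.3 to 783 in PBS muscle. For 8 macrophage genes the sums ran from 413 to 1121 in LLC muscle and 262 to 1690 in PBS muscle. PBS 1 and LLC 3 had the lowest sums of their groups on these 3 lists and on the list of 5 osteoclast genes (35.1 to 60.9 FPKM in LLC, 20.9 to 83.4 in PBS; 2 of its genes, Acp5 and Ctsk, are also lysosomal). Most of the macrophage sum was Lyz2, at 573, 953 and 273 FPKM in LLC 1 to 3. Of the LLC libraries LLC 3 was also lowest for Cd68 and Adgre1, but LLC 1 was lowest for Cd163, C1qa, C1qb, Csf1r and Mrc1. Endothelial genes summed to 176 to 216 FPKM in LLC muscle and 83.7 to 101 in PBS muscle, and fat cell genes to 450 to 1347 in LLC and 294 to 459 in PBS muscle. Tendon genes summed to 38.0 to 238 in LLC and 272 to 408 in PBS muscle, and epidermal genes to 48.7 to 1120 in LLC and 0.452 to 78.5 in PBS muscle, 3 of these 4 genes being listed at 0 in some library. The endothelial sums did not overlap between the groups and neither did the tendon sums. Of the 5 endothelial genes Kdr went the other way, at 10.3, 8.20 and 10.8 FPKM in LLC 1 to 3, against 12.4, 12.2 and 9.77 in PBS 1 to 3. The part of any of these cells in the values of the 34 genes was not tested. In bulk tissue fewer cells of a type and less RNA per cell cannot be told apart.

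The region just upstream of several of these genes holds the palindrome CACGTG, the E-box that Tfeb and Tfe3 are known to bind. RefSeq promoter windows (GRCm38.p6, 250 bases before to 50 after the start) matched 28 of the 34 genes with 32 windows, and 30 of these windows overlapped an ATAC peak. CACGTG, which reads the same on both strands, was in 10 of the 32 windows (31.2%), against 7.15% of all 32851 windows of that length. The extended form TCACGTGA, whose every match is also a CACGTG match, was in 3 windows (9.38%, against 0.974% of all windows). Neither share was tested against that of all windows. Because Tfeb and Tfe3 are known regulators of these genes, the list was not chosen independently of the motif. The members with CACGTG were Atg14, Atg3, Atg5, Atg7, Bnip3, Ctsd, Ctsl, Gaa, Lamp1 and Mcoln1, and 14 of their 16 matches lay inside a peak of the C2C12 data. The 2 matches outside one were those of Atg7, at an internal start, and Ctsl. The 120 bases before the starts of Lamp1, Mcoln1, Ctsd and Atg3 are shown because they hold the densest matches and all 3 extended ones; capitals mark CACGTG, and each reads 5′ to 3′ on the strand of its gene. They lie at chr8:13159041-13159160 (plus strand) for Lamp1, chr8:3500399-3500518 (plus) for Mcoln1, chr7:142387828-142387947 (minus) for Ctsd and chr16:45158709-45158828 (plus) for Atg3.
Lamp1: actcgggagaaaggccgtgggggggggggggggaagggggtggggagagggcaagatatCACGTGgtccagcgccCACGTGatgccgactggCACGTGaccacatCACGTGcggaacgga
Mcoln1: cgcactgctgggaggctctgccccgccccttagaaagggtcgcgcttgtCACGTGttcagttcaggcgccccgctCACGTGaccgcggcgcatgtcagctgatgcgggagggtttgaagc
Ctsd: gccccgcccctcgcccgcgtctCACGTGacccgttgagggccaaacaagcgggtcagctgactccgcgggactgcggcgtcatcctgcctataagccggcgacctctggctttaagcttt
Atg3: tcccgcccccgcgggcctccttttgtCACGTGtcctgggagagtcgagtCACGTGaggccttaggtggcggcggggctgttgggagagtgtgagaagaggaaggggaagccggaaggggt

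Lamp1, an abundant glycoprotein of the lysosomal membrane, held 4 E-boxes within 120 bases of its start, while Mcoln1, the lysosomal calcium channel, and Atg3, which transfers ATG8 proteins to lipid, held 2 each. Ctsd, the aspartic protease cathepsin D, held 1 in the stretch shown and another further upstream, at -245. The FoxO motif GTAAACA was in 0 of the 32 windows, against 3.65% of all windows, and the difference from that share was not tested. Only these exact letters were searched, which leaves other forms of the motif, enhancers and more distant sequence unread. The AP-1 motif TGANTCA was in 1 member window (Tfe3), against 7.81% of all, and TGACNNNGC, the core of the antioxidant response element, in 3 (Ctsd, Map1lc3b and Ulk2), or 9.38%, against 12.4% of all. All motifs were searched on both strands. None of these matches says whether a factor was bound.

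In muscle of LLC mice, set against PBS mice, the log2 difference of the RNA was above 0 for 24 of the 34 genes and below 0 for 10, and no gene passed the test. The fit was limma on log2(FPKM + 1) over the 12981 genes whose mean reached 1 FPKM, all 34 among them, with Benjamini-Hochberg adjustment. It called 0 members, and 0 of all genes tested (0%), at an adjusted p under 0.05, and edgeR on recovered reads also called 0, with 991 genes at an unadjusted p under 0.05 by limma and 932 by edgeR. At an unadjusted p under 0.05, 7 of the 34 members (20.6%) were higher and 0 lower, against 5.82% of all genes higher and 1.82% lower. In 8 of the 34 members every LLC library was above every PBS library, which held for 9.5% of all genes. In 0 members every LLC library was below, which held for 3.94%. The 34 genes were chosen with earlier results of these data known, so these contrasts with all genes are a description and not a test. The median log2 difference of the members was 0.073, against 0.014 over all genes tested, of which 53.0% were above 0. Its size depended on the libraries, being 0.030 without LLC 2, 0.13 without LLC 3 and 0.13 without PBS 3, where the median of all genes was -0.00205, 0.041 and 0.067. It was 0.042 with median-of-ratios scaling and 0.036 with quantile normalization, where the median of all genes was -0.010 and -0.015. A gene that missed the threshold is not shown to be unchanged. Levels spanned from a mean of 4.31 FPKM for Atg14 to 362 FPKM for Ctsd over the 6 libraries, so none of the 34 was near the filter.

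**Figure D1:**
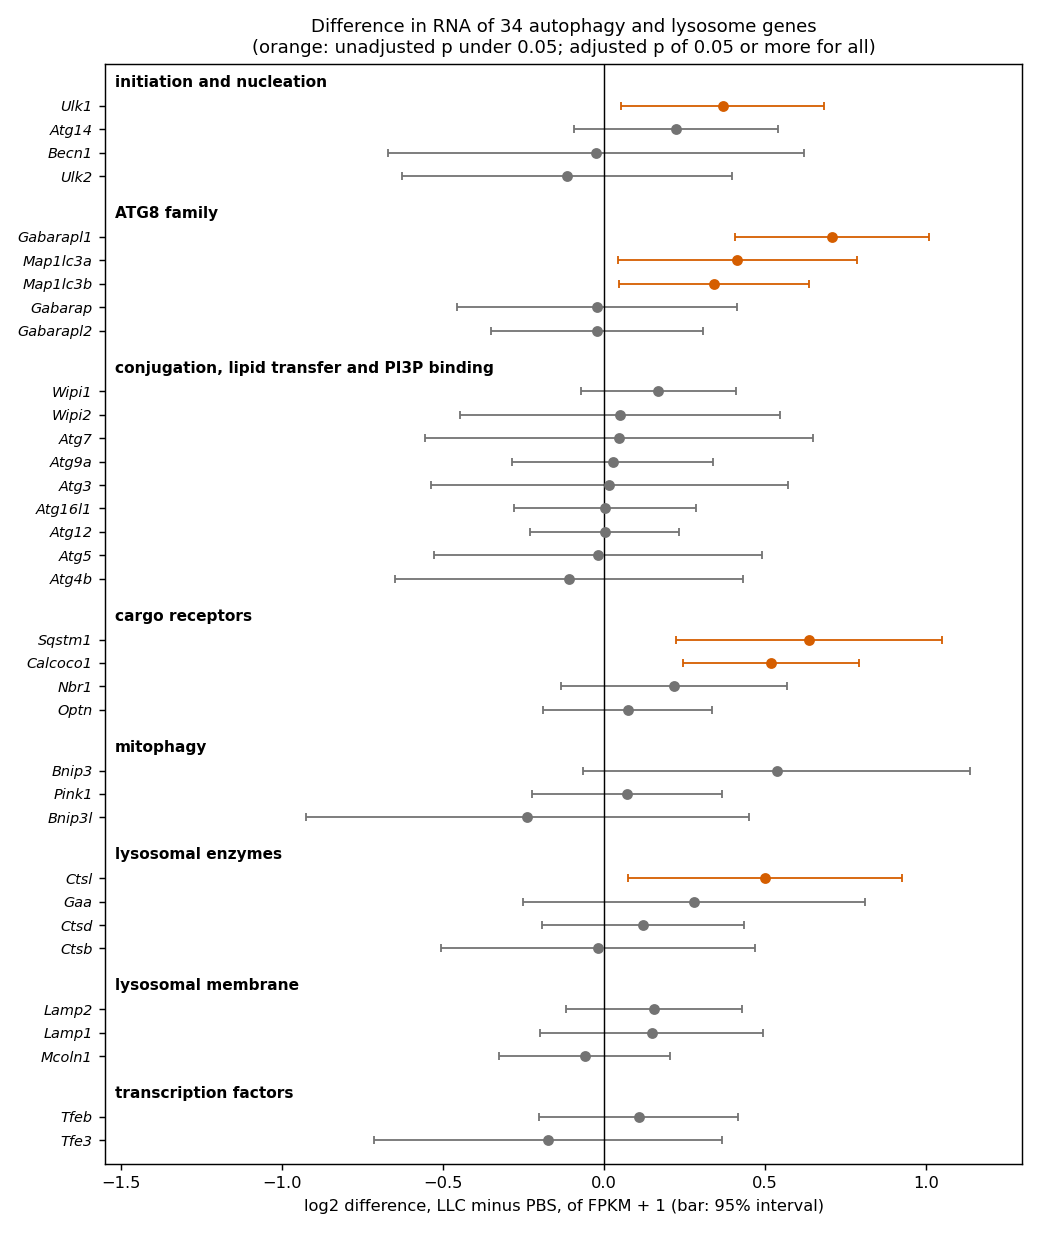
The log2 difference, LLC minus PBS, of FPKM + 1 is plotted for the 34 genes by role, with 95% intervals from limma; orange marks an unadjusted p under 0.05. Of the 7 orange genes 3 are ATG8 family members and 2 are cargo receptors, and the intervals of the 9 conjugation, lipid transfer and PI3P binding genes all include 0.

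Among the ATG8 proteins, which coat the forming membrane, the 5 genes split into 3 whose LLC libraries were all above the PBS libraries and 2 whose groups overlapped. Gabarapl1 (chr6:129533192-129542331, plus strand) had 44.7, 51.1 and 56.4 FPKM in LLC 1 to 3, against 30.3, 31.9 and 29.4 in PBS 1 to 3. All 3 LLC libraries were above all PBS libraries, and LLC 3 was highest. Its log2 difference, 0.71 ± 0.12 (SE, as for all log2 differences), had the smallest p of the 34 genes (unadjusted p = 0.00126 by limma, adjusted p = 0.199). Its reads cannot be told apart from those of 1700101I11Rik, which overlaps it on the other strand, because both strands were counted.

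Map1lc3a and Map1lc3b encode LC3A and LC3B, and lipid-bound LC3B is the common marker of autophagosomes. Map1lc3a (chr2:155276364-155278073) had 104, 108 and 98.8 FPKM in the LLC libraries, against 64.1, 89.4 and 81.0 in the PBS libraries. Map1lc3b (chr8:121590438-121598760) had 85.9, 107 and 97.2 FPKM in LLC muscle, against 72.6, 77.0 and 77.6 in PBS muscle. In both genes the groups did not overlap and PBS 1 was the lowest library. The log2 differences were 0.41 ± 0.15 for Map1lc3a (limma adjusted p = 0.596) and 0.34 ± 0.12 for Map1lc3b (limma adjusted p = 0.571), and Zcchc14 overlaps Map1lc3b on the other strand. Gabarap averaged 137 ± 24.5 FPKM over the LLC and 138 ± 18.8 FPKM over the PBS libraries (SD, n = 3 each), and Gabarapl2 65.3 ± 3.23 in LLC and 66.7 ± 9.15 in PBS libraries, so that neither mean differed by more than the spread.

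The relation of Gabarapl1 to its 2 closest relatives was compared within each library, as was that of Ulk1 to Ulk2 and of Bnip3 to Bnip3l; these 4 ratios were chosen after the values were seen. Gabarapl1 stood at 0.342, 0.312 and 0.486 of the FPKM of Gabarap in LLC 1 to 3, against 0.243, 0.244 and 0.184 in PBS 1 to 3. The ratios did not overlap between the groups, and the log2 ratio was higher in LLC by 0.75. The exact two-sided permutation test gave p = 0.1, the smallest that 3 against 3 libraries allow (Benjamini-Hochberg 0.133 over 4 ratios), and the same p was found for Gabarapl1 to Gabarapl2, whose log2 ratio was also 0.75 higher.

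Initiation is read here from 4 genes, led by the Ulk1 kinase. Ulk1, the kinase that starts autophagosome formation, had 19.3, 20.6 and 24.1 FPKM in LLC 1 to 3, against 17.8, 15.6 and 15.4 in PBS 1 to 3. The groups lay side by side without overlap, and the log2 difference was 0.37 ± 0.13 (limma adjusted p = 0.569). Ulk2, its relative, averaged 21.2 ± 1.44 FPKM in LLC and 23.5 ± 6.77 in PBS muscle, with PBS 1 highest at 31.2. The ratio of Ulk1 to Ulk2 was 0.902 to 1.07 in LLC libraries and 0.572 to 0.844 in PBS libraries (log2 ratio 0.51 higher, exact permutation p = 0.1, Benjamini-Hochberg 0.133). Atg14, the subunit that directs the lipid kinase complex to autophagy, had 5.03, 4.01 and 5.17 FPKM in LLC, against 3.76, 3.79 and 4.13 in PBS libraries, LLC 2 falling below PBS 3 (log2 difference 0.22 ± 0.13, limma adjusted p = 0.879). Becn1, the scaffold of that complex, averaged 36.5 ± 5.38 FPKM in LLC and 38.2 ± 11.8 in PBS muscle.

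The 4 cargo receptors all had higher means in LLC muscle. Sqstm1, or p62, which binds ubiquitin and LC3 and is itself degraded by autophagy, had 253, 283 and 355 FPKM in LLC 1 to 3, against 199, 202 and 168 in PBS 1 to 3. LLC 3 was highest, PBS 3 lowest and no PBS library reached the LLC range, and the log2 difference was 0.64 ± 0.17 (unadjusted p = 0.0095 by limma, adjusted p = 0.411). Calcoco1, a receptor for parts of the endoplasmic reticulum, had 43.6, 40.8 and 46.0 FPKM in LLC, against 31.5, 31.1 and 27.4 in PBS libraries. Here too no PBS library reached the lowest LLC library (log2 difference 0.52 ± 0.11, unadjusted p = 0.0036 by limma, adjusted p = 0.299). Nbr1, which like p62 carries ubiquitinated cargo, had 24.2, 24.7 and 29.6 FPKM in LLC 1 to 3, against 24.9, 22.9 and 19.4 in PBS 1 to 3. PBS 1 lay above LLC 1 and LLC 2, and the log2 difference was 0.22 ± 0.14 (limma adjusted p = 0.94). Optn, a receptor in mitophagy, averaged 25.7 ± 2.10 FPKM in LLC and 24.3 ± 0.959 in PBS libraries.

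The promoters of the 3 genes with the smallest p in the RNA, Gabarapl1, Calcoco1 and Sqstm1, hold no E-box in their windows, in contrast to those shown above. The 150 bases before each start are given for comparison, 5′ to 3′ on the strand of the gene and without capitals. They are chr6:129533042-129533191 (plus) for Gabarapl1, chr15:102722179-102722328 (minus) for Calcoco1 and chr11:50210821-50210970 (minus) for Sqstm1, and each overlapped a peak in C2C12 cells.
Gabarapl1: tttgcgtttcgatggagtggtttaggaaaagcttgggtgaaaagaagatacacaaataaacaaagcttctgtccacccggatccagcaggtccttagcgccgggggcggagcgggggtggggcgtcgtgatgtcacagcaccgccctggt
Calcoco1: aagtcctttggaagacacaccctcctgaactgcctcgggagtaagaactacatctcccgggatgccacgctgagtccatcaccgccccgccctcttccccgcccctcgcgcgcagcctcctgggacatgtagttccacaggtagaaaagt
Sqstm1: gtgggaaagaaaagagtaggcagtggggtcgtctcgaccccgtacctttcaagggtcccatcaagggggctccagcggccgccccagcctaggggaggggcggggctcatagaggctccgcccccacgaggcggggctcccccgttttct

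The RNA values were also set beside the E-box. Of the 10 genes with CACGTG in a window 8 had a log2 difference above 0, with a median of 0.13, and 1 (Ctsl) had an unadjusted p under 0.05. Of the 18 with a window and no CACGTG 13 were above 0, with a median of 0.091, and 5 had an unadjusted p under 0.05. These counts are a description of genes chosen by name and were not tested.

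**Figure D2:**
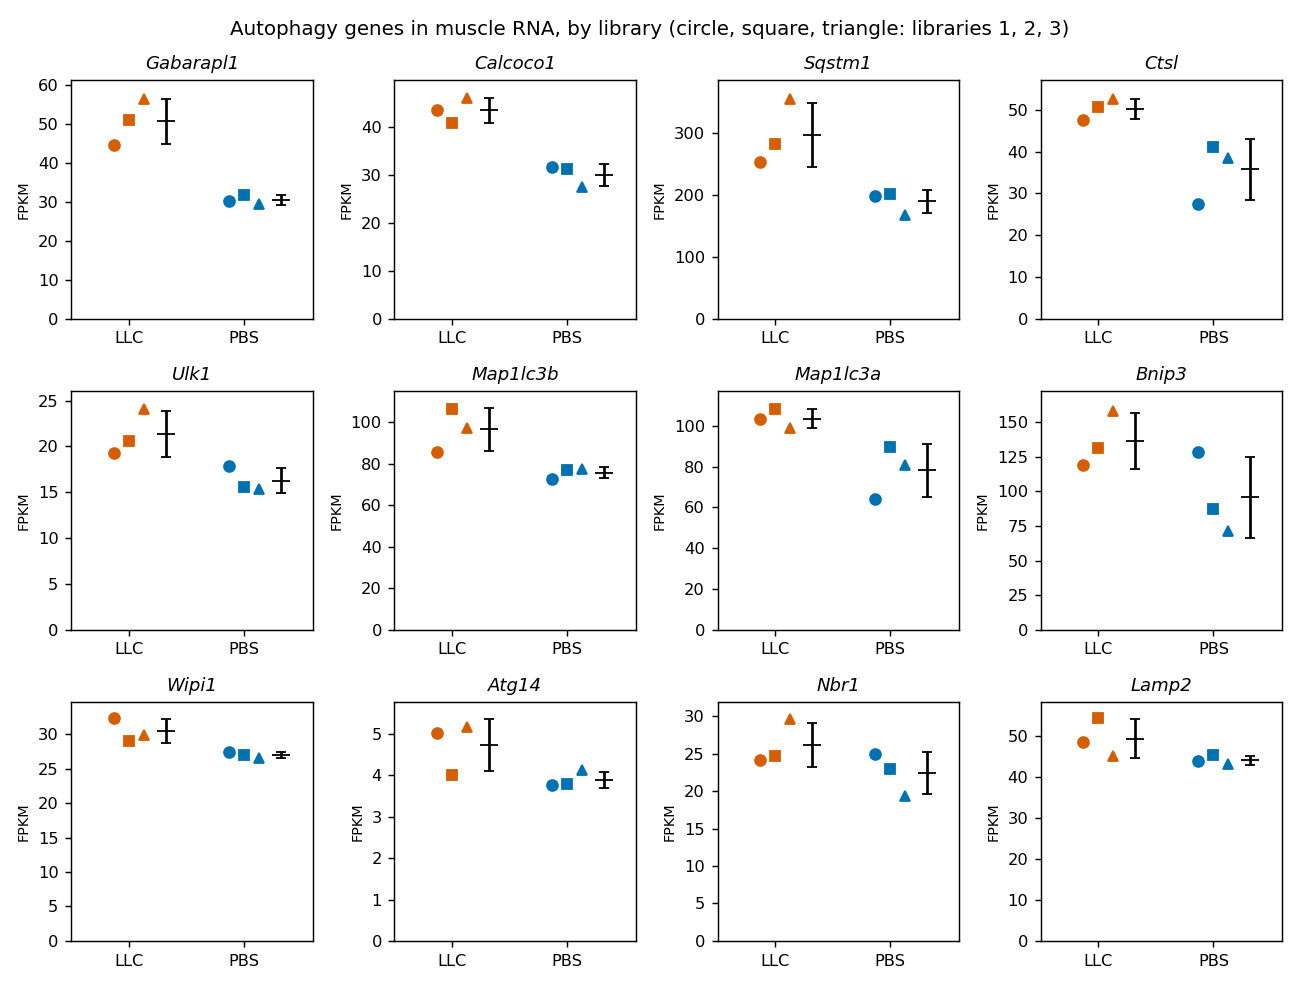
FPKM of the 12 genes with the smallest limma p, one panel each, with LLC libraries in orange on the left and PBS libraries in blue on the right; bars give the mean and SD of 3 libraries. The groups do not overlap in Gabarapl1, Calcoco1, Sqstm1, Ctsl, Ulk1, Map1lc3b, Map1lc3a and Wipi1, and they overlap in Bnip3, Atg14, Nbr1 and Lamp2.

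Bnip3 and Bnip3l, receptors on the outer mitochondrial membrane that mark mitochondria for removal, had means on opposite sides. Bnip3 had 119, 131 and 158 FPKM in LLC 1 to 3, against 129, 87.1 and 71.6 in PBS 1 to 3. PBS 1 lay inside the LLC range and the other PBS libraries below it, and the log2 difference was 0.54 ± 0.24 (unadjusted p = 0.0713 by limma, adjusted p = 0.724). Bnip3l, which is also known to clear mitochondria from maturing red cells, had 37.5, 41.9 and 36.2 FPKM in LLC 1 to 3, against 30.1, 48.4 and 64.6 in PBS 1 to 3. Its PBS libraries were both below and above all LLC libraries (log2 difference -0.24 ± 0.28, limma adjusted p = 0.9998). The summed erythroid markers had the same order in PBS muscle, 16.3, 454 and 783 FPKM, and were 60.7, 243 and 34.02 in LLC 1 to 3; their part in the Bnip3l values was likewise not tested. Without PBS 1 and LLC 3, which had the lowest erythroid and marrow sums of their groups, the log2 difference of Bnip3l was -0.49 (unadjusted p = 0.0488 by limma, adjusted p = 0.322) and that of Bnip3 0.66 (unadjusted p = 0.0102, adjusted p = 0.243), so neither passed. The ratio of Bnip3 to Bnip3l was 3.17, 3.14 and 4.38 in LLC 1 to 3, against 4.27, 1.80 and 1.11 in PBS 1 to 3. PBS 1 lay inside the LLC range, and the exact two-sided permutation test gave p = 0.3 (Benjamini-Hochberg 0.3). Pink1, the kinase that accumulates on damaged mitochondria, averaged 290 ± 24.98 FPKM in LLC and 275 ± 14.8 in PBS muscle.

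**Figure D3:**
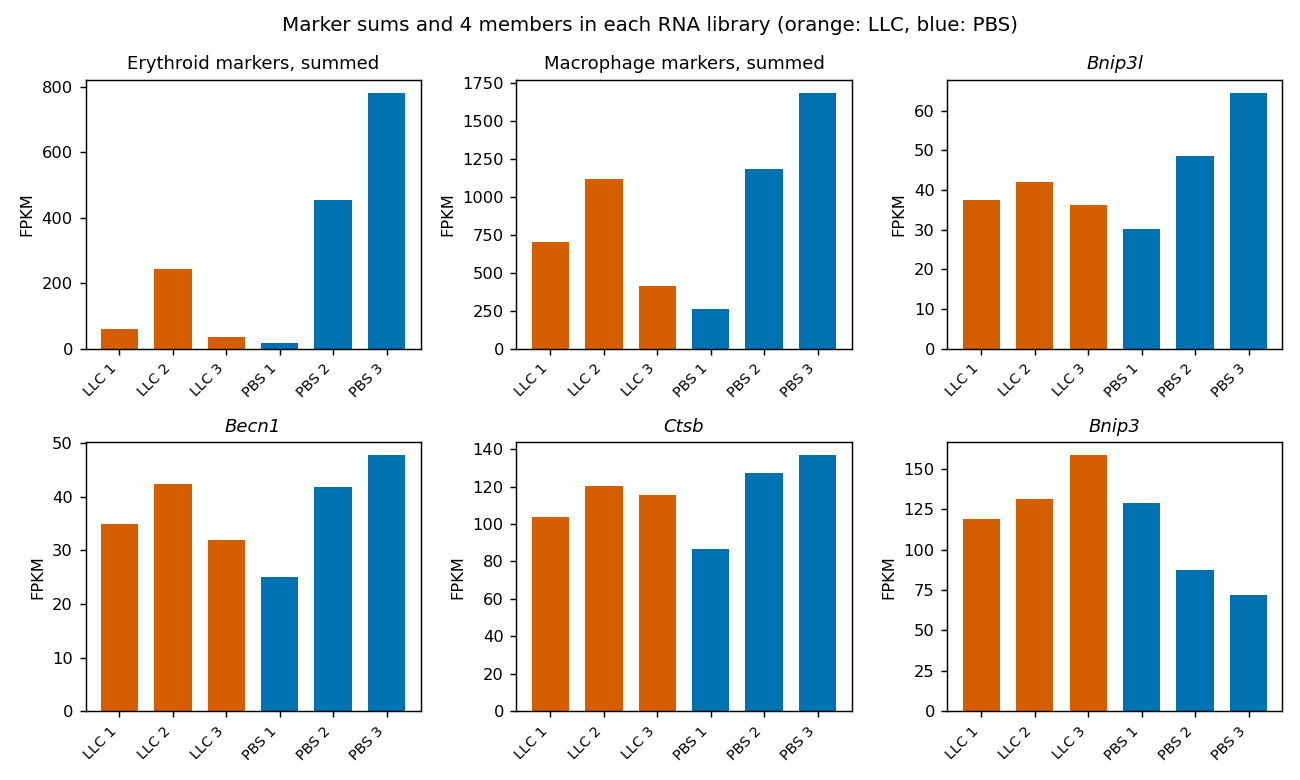
Summed FPKM of 5 erythroid and 8 macrophage markers and FPKM of Bnip3l, Becn1, Ctsb and Bnip3 in each library, LLC in orange and PBS in blue. In the PBS libraries Bnip3l, Becn1 and Ctsb are lowest in PBS 1 and highest in PBS 3, as both marker sums are, and Bnip3 has the opposite order. PBS 1 is the lowest PBS library for 62.3% of all genes. In the LLC libraries both marker sums, Bnip3l and Becn1 are lowest in LLC 3 and highest in LLC 2. There Ctsb is lowest in LLC 1 and highest in LLC 2, and Bnip3 is lowest in LLC 1 and highest in LLC 3.

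PBS 1 ran low over the table as a whole, with a median-of-ratios factor of 0.848 against 0.980 to 1.08 in the other RNA libraries. It was the lowest of all 6 libraries for 16 members (47.1%, against 49.3% of all genes) and the lowest PBS library for 20 (58.8%, against 62.3%). In 11 members PBS 1 was lowest in its group and LLC 3 lowest in the other (32.4%, against 37.1% of all genes), so these shares of the members were near those of all genes. With both libraries left out, an alternative added after the values were seen, 6 members had an unadjusted p under 0.05, 5 higher and 1 (Bnip3l) lower, against 4.98% of all genes higher and 10.4% lower. The median log2 difference of the members was 0.085 in this fit, against -0.047 over all genes. The log2 differences of the 7 leading genes were then 0.62 for Gabarapl1, 0.51 for Calcoco1, 0.54 for Sqstm1, 0.34 for Ulk1, 0.31 for Map1lc3a, 0.30 for Map1lc3b and 0.30 for Ctsl, the last 3 at an unadjusted limma p of 0.0595, 0.108 and 0.0574. Leaving out each library in turn gave 3 to 8 members higher at an unadjusted p under 0.05, with 3 without LLC 2 (4.83% of all genes), 3 without LLC 3 (3.24%) and 4 without PBS 3 (4.24%). The 8 were without PBS 1, where 7% of all genes were higher at that p and 13.4% lower, 2 members among the lower. Of the 34 genes 20 kept their sign throughout.

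The conjugation machinery, which couples Atg12 to Atg5 and ATG8 proteins to lipid, had group means that differed by less than the spread within the groups. The small conjugating protein Atg12 averaged 16.5 ± 0.036 FPKM in LLC and 16.4 ± 0.762 in PBS muscle, and its partner Atg5 8.31 ± 1.62 in LLC and 8.45 ± 1.74 in PBS libraries. Atg7, the enzyme that activates Atg12 and the ATG8 proteins, averaged 6.26 ± 1.01 in LLC and 6.18 ± 1.98 in PBS libraries. Atg3 averaged 16.5 ± 3.64 in LLC and 16.3 ± 3.34 in PBS libraries, and Atg16l1, which places the conjugate on the membrane, 9.61 ± 0.426 in LLC and 9.61 ± 0.965 in PBS libraries. The protease Atg4b, which trims ATG8 proteins, averaged 10.2 ± 0.786 FPKM in LLC and 11.4 ± 3.19 in PBS muscle, and the lipid scramblase Atg9a 44.7 ± 0.964 in LLC and 44.1 ± 5.98 in PBS libraries. Of the 2 lipid-binding WIPI proteins, Wipi2 averaged 14.0 ± 0.0859 FPKM in LLC and 13.8 ± 3.63 in PBS libraries, while Wipi1 had 32.5, 29.1 and 30.0 FPKM in LLC 1 to 3, against 27.4, 27.1 and 26.5 in PBS 1 to 3. Wipi1 was the 1 gene of these 9 whose groups did not overlap, with a log2 difference of 0.17 ± 0.097 (limma adjusted p = 0.879).

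Of the lysosomal enzymes, Ctsl, the cysteine protease cathepsin L, had 47.6, 50.6 and 52.5 FPKM in LLC 1 to 3, against 27.5, 41.2 and 38.5 in PBS 1 to 3. The LLC libraries were close to each other and above all PBS libraries, and PBS 1 was far the lowest. The log2 difference was 0.50 ± 0.17 (unadjusted p = 0.0286 by limma, adjusted p = 0.567) and 0.33 without PBS 1. Ctsd averaged 377 ± 21.7 FPKM in LLC and 347 ± 34.9 in PBS muscle, Ctsb, or cathepsin B, 113 ± 8.48 in LLC and 117 ± 26.6 in PBS libraries, and Gaa, the acid glucosidase that digests lysosomal glycogen, 75.0 ± 12.2 in LLC and 62.1 ± 14.2 in PBS libraries. Reads of Ctsb cannot be told apart from those of Fdft1 where the genes overlap. In the lysosomal membrane, Lamp2, the receptor of chaperone-mediated autophagy, had 48.7, 54.5 and 45.1 FPKM in LLC, against 44.0, 45.3 and 43.1 in PBS libraries, with LLC 3 just below PBS 2 (log2 difference 0.16 ± 0.11, limma adjusted p = 0.974). Lamp1 averaged 235 ± 14.7 FPKM in LLC and 213 ± 27.9 in PBS muscle, and Mcoln1 12.8 ± 0.953 in LLC and 13.3 ± 0.736 in PBS libraries. The factor Tfeb had 26.8, 33.7 and 28.3 FPKM in LLC 1 to 3, against 25.8, 29.1 and 27.0 in PBS 1 to 3, the groups overlapping (log2 difference 0.11 ± 0.13, limma adjusted p = 0.9998), and Tfe3 averaged 7.50 ± 1.59 FPKM in LLC and 8.63 ± 2.05 in PBS libraries.

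The wider pathway was read from 5 further lists, again with 0 genes called in any of them. Over all genes tested 53.0% had a log2 difference above 0. By limma 5.82% were higher and 1.82% lower at an unadjusted p under 0.05. The lists were not tested against these shares. Of 30 other autophagy genes 16 had a log2 difference above 0 (median 0.015), and 1 gene on each side was at an unadjusted p under 0.05. These were Atg4a, an ATG8 protease related to Atg4b, whose mean was 14.1 ± 1.48 FPKM over LLC and 20.5 ± 2.74 FPKM over PBS libraries (unadjusted p = 0.013 by limma, adjusted p = 0.443), and Wdr45, a WIPI relative, at 23.4 ± 0.835 FPKM in LLC and 18.3 ± 2.44 in PBS libraries. Atg13, a partner of Ulk1, stood at 14.4 ± 0.605 FPKM in LLC and 12.0 ± 0.742 in PBS libraries. Of 14 other cargo receptor and mitophagy genes 8 were above 0 (median 0.057), and 1 had an unadjusted p under 0.05. This was Retreg1, the reticulophagy receptor FAM134B, with 67.5, 87.1 and 91.1 FPKM in LLC 1 to 3, against 44.9, 39.3 and 35.5 in PBS 1 to 3. That is a larger log2 difference, 1.01 ± 0.16, than any of the 34 members had (unadjusted p = 0.000859 by limma, adjusted p = 0.169), with no overlap of the groups. Ccpg1, likewise a receptor for the endoplasmic reticulum, averaged 30.9 ± 1.55 FPKM in LLC and 24.7 ± 5.23 in PBS libraries, and the glycogen-binding Stbd1 12.6 ± 1.34 in LLC and 15.4 ± 3.19 in PBS libraries.

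The other 3 lists concern the lysosome itself, and the shares of all genes given above stand beside their counts too. Of 46 other hydrolases and membrane proteins 18 were above 0 (median -0.017), and 1, the sulfatase Arsa, had an unadjusted p under 0.05 (4.83 ± 0.452 FPKM in LLC and 3.57 ± 0.265 in PBS muscle). The proteases of this list with the smallest p were Lgmn at 38.7 ± 5.05 FPKM in LLC and 30.5 ± 5.26 in PBS libraries and Ctsf at 15.6 ± 0.655 in LLC and 13.3 ± 1.29 in PBS libraries. Of the 19 tested subunits of the vacuolar ATPase, the proton pump of the lysosome, 8 were above 0 (median -0.016) and 0 had an unadjusted p under 0.05. Atp6ap1 averaged 66.3 ± 6.36 FPKM in LLC and 76.9 ± 3.55 in PBS libraries, Atp6v1g1 92.9 ± 4.29 in LLC and 104 ± 6.08 in PBS libraries, and Atp6v1h 14.9 ± 0.602 in LLC and 12.5 ± 2.49 in PBS libraries. Of 22 genes of nutrient sensing at the lysosome 13 were above 0 (median 0.037) and 0 had such a p. Lamtor1 averaged 54.0 ± 7.41 FPKM in LLC and 65.4 ± 3.38 in PBS muscle, Mitf, a relative of Tfeb, 3.76 ± 0.233 in LLC and 2.85 ± 0.653 in PBS libraries, and Flcn 21.1 ± 1.92 in LLC and 17.7 ± 1.83 in PBS libraries.

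In C2C12 cells the chromatin at these genes was read from 87 peaks at 30 of the 34 genes. Atg7 had 19 of them, 17 genes had 2 to 5 and 12 genes had 1. Of the 87 peaks 57 were in all 6 of the authors' per-library peak lists, and the median width was 557 bp. The values are tags per 10 M, and 76 peaks reached the mean of 5 that the test required; the other 11 are Atg7 peaks in a satellite repeat. C26 medium libraries 1 to 3 had 12.8, 11.9 and 13.4% of their tags in nuclear peaks, against 26.8, 12.9 and 17.7% in controls 1 to 3. The median log2 difference over all peaks was -0.54 as deposited and -0.019 after scaling by the median of ratios, and member peaks were therefore read on both scales.

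As deposited, 71 of the 76 member peaks were lower in C26 medium, with a median log2 difference of -0.63, and 0 were called by limma in either direction, against 1.15% of all peaks called higher and 1.88% lower; 27 had an unadjusted p under 0.05, all lower, against 26.6% of all peaks lower. Without control 1 the median was -0.38, against -0.26 over all peaks. The edgeR fit, which scales the reads by composition, called 5 member peaks higher and 16 lower, against 17.6% of all peaks higher and 12.8% lower. After scaling, 5 member peaks were called higher, at 4 genes, and 17 lower, at 13 genes, against 17.1% of all peaks higher and 12.7% lower, and the member median was -0.12. The 5 called higher were the 5 that were above 0 as deposited. The choice between the scales rests in part on whether total accessibility was equal in both groups, which was not tested. The controls also differed among themselves, with 12.9 to 26.8% of their tags in nuclear peaks. Control 2, at 12.9%, lay inside the 11.9 to 13.4% of the C26 medium libraries. All peaks below that passed the threshold did so after scaling, and those outside the 10 smallest p as deposited were chosen after their values were seen.

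At promoters the scaled signal was lower or not called. The highest peak within 1000 bp of the start was taken for each of the 30 genes. In C26 medium 10 of these were called lower and 0 higher. The scaled log2 difference was below 0 in 23 of the 30, with a median of -0.23. Over all peaks within 1000 bp of a start 21.2% were called lower and 2.5% higher, with a median of -0.16. The difference between these shares was not tested.

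The most negative scaled log2 difference of the 76 peaks was at the promoter of Ctsl (chr13:64369970-64370718, centred at +176 bp, over the first exon). Its deposited signal was 33.2, 32.3 and 36.3 tags per 10 M in C26 medium 1 to 3, against 112, 56.0 and 73.2 in controls 1 to 3. Every C26 medium library was below every control, and control 1 was far above the others. The log2 difference was -1.16 ± 0.37 as deposited (limma adjusted p = 0.0555). After scaling the signal was 40.8 ± 0.872 in C26 medium and 64.0 ± 2.04 in controls (SD, n = 3 each), a log2 difference of -0.64 ± 0.12 (limma adjusted p = 4.3e-05). In the 250 bases before the Ctsl start (chr13:64370521-64370770, minus strand) the E-box, in capitals, begins at -236, beyond the upstream edge of that peak.
Ctsl: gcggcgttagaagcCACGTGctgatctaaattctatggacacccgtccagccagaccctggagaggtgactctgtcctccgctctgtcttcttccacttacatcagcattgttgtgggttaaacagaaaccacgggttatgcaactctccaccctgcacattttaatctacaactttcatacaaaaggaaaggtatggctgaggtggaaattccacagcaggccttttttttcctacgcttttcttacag

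At the other promoters with the smallest p control 1 was again the highest and control 2 the lowest of the controls as deposited. At Ulk1 (chr5:110809772-110810340, +25 bp) the deposited signal was 37.1, 28.1 and 37.9 in C26 medium 1 to 3, against 103, 49.6 and 76.1 in controls 1 to 3, and the scaled log2 difference was -0.55 ± 0.13 (limma adjusted p = 0.000573). At Gabarap (chr11:69990860-69991823, -29 bp) it was 61.3, 59.7 and 53.8 in C26 medium, against 173, 82.0 and 114 in controls (scaled -0.47 ± 0.10, limma adjusted p = 0.000371). In both genes the groups did not overlap on either scale, and control 2 was the control nearest to the C26 medium libraries as deposited. At Wipi1 (chr11:109611155-109612147, -262 bp) the signal was 105, 95.8 and 91.8 in C26 medium, against 288, 119 and 205 in controls (scaled -0.44 ± 0.094, limma adjusted p = 0.000278). At Bnip3l (chr14:67008291-67009208, +128 bp) it was 74.5, 70.1 and 87.4 in C26 medium, against 237, 108 and 140 in controls (scaled -0.45 ± 0.093, limma adjusted p = 0.000156). The peak at the Nbr1 start (chr11:101551895-101553097, -158 bp) covers the shared promoter of Nbr1 and Brca1 and had the highest signal of the member peaks, 155, 135 and 155 in C26 medium, against 391, 190 and 255 in controls (scaled -0.31 ± 0.083, limma adjusted p = 0.00293).

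**Figure D4:**
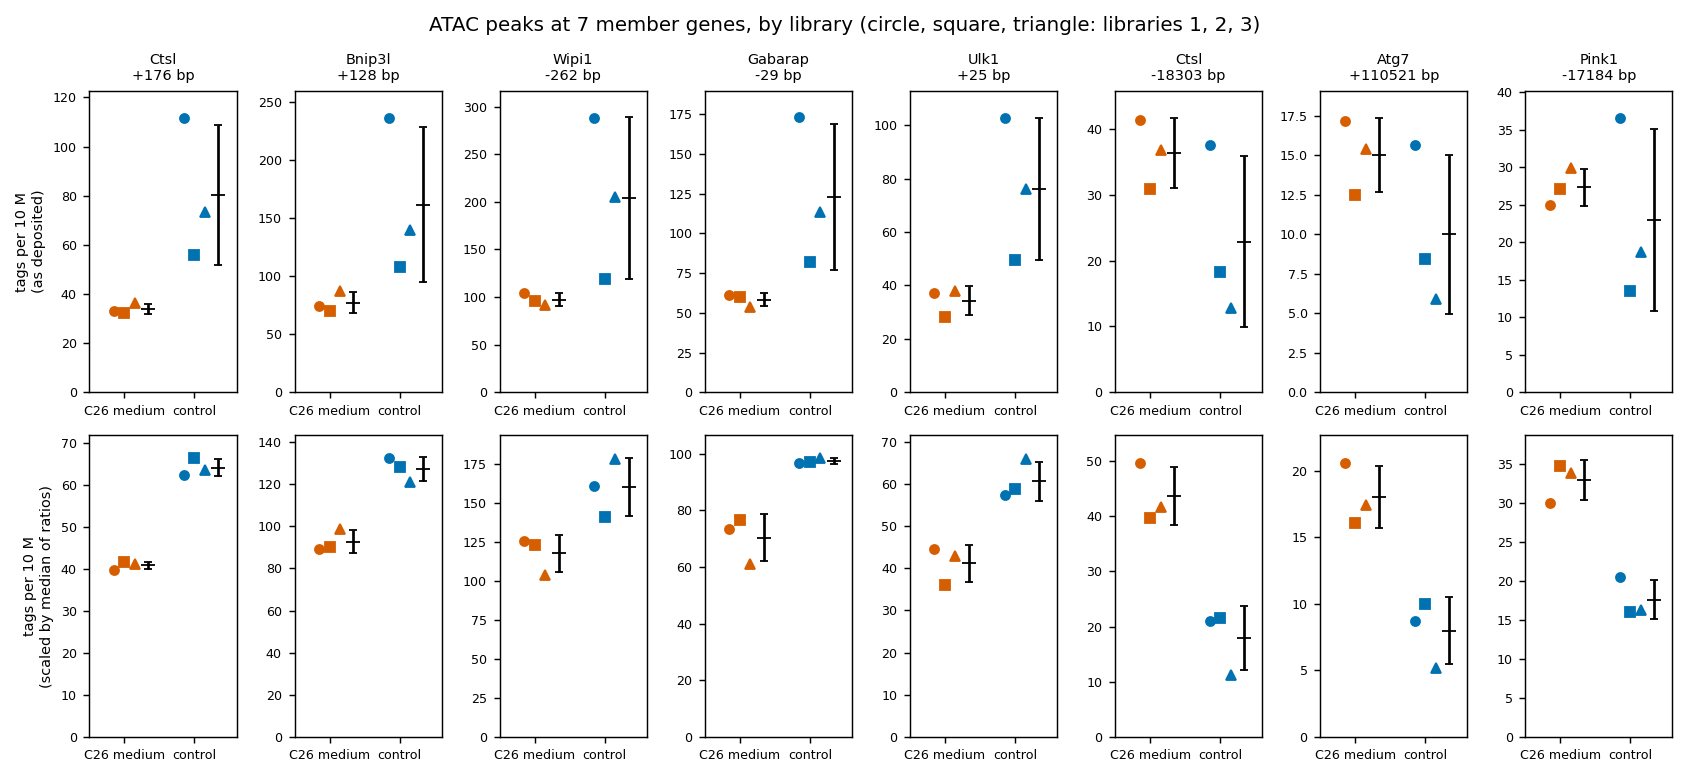
Tags per 10 M of 8 member peaks as deposited (top) and after median-of-ratios scaling (bottom), with C26 medium libraries in orange on the left and controls in blue on the right; bars give the mean and SD of 3 libraries. Control 1 is the highest control in all 8 as deposited, and after scaling the 5 promoter peaks on the left are lower and the 3 distal peaks on the right higher in every C26 medium library.

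Of the other promoters, those of Atg5 (+69 bp, scaled log2 difference -0.31), Becn1 (+153 bp, -0.46), Pink1 (+366 bp, -0.33) and Tfe3 (+66 bp, -0.28) fell with limma adjusted p-values of 0.0209, 0.0278, 0.0382 and 0.04. The promoters of Map1lc3a (-0.25), Map1lc3b (-0.28), Sqstm1 (-0.21), Atg14 (-0.33), Lamp1 (-0.30), Ctsd (-0.27), Gaa (-0.19), Atg3 (-0.16), Tfeb (-0.15), Bnip3 (-0.14), Mcoln1 (-0.11), Wipi2 (-0.097) and Atg16l1 (-0.028) were not called. Those of Atg7 (0.29), Ulk2 (0.15), Lamp2 (0.13), Optn (0.085), Calcoco1 (0.058), Ctsb (0.044) and Gabarapl2 (0.019) had scaled differences above 0 that were not called. Of the 10 promoters of genes with CACGTG in a window 2 were called lower (Atg5 and Ctsl), and of the 15 of genes with a window that lacks it 6 were. The matches of Ctsl and Atg7 lie outside the promoter peaks counted here. The share over all peaks within 1000 bp of a start was 21.2%, and the counts were not tested against it or each other.

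Gabarapl1, Atg4b, Atg9a and Atg12 named no peak, but each has a peak at its start that the annotation gives to the gene on the other side of a shared promoter. These 4 peaks are outside the list and were looked up after the values were seen. At Gabarapl1 the peak (chr6:129532618-129533949, named 1700101I11Rik) had 27.3, 30.5 and 30.8 tags per 10 M in C26 medium 1 to 3, against 62.1, 36.1 and 44.0 in controls, with a scaled log2 difference of -0.11 ± 0.15 (limma adjusted p = 0.608). The scaled differences were -0.045 ± 0.10 at Atg4b (named Thap4; adjusted p = 0.779) and -0.12 ± 0.092 at Atg9a (named Ankzf1; adjusted p = 0.345). At Atg12 the peak, named Ap3s1, had 32.4, 41.3 and 36.8 tags in C26 medium, against 130, 54.3 and 71.7 in controls, and fell by 0.58 on the scaled log2 axis (SE 0.12, limma adjusted p = 0.000303).

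Away from starts the member peaks went both ways. Of 45 peaks beyond 1000 bp 5 were called higher and 7 lower after scaling, with a median log2 difference of -0.0009, against 22.9% higher, 9.28% lower and a median of 0.086 over all such peaks. At Ctsl 1 distal peak rose and another fell. The intergenic peak at -18303 bp (chr13:64388542-64389105) had 41.4, 30.9 and 36.8 tags per 10 M in C26 medium 1 to 3, against 37.5, 18.2 and 12.9 in controls. As deposited control 1 lay among the C26 medium libraries and the other controls below them. After scaling the means were 43.7 ± 5.26 in C26 medium and 17.9 ± 5.86 in controls, a log2 difference of 1.29 ± 0.19 (limma adjusted p = 4.8e-07). The peak at -30586 bp, in an ERVL repeat (chr13:64400824-64401389), fell by 0.56 on the scaled log2 axis (limma adjusted p = 0.0024), with 26.1, 23.9 and 27.2 tags in C26 medium, against 98.3, 33.4 and 52.4 in controls.

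Atg7 had 2 higher peaks within its body, in intron 19 at +138419 bp (scaled log2 difference 0.57 ± 0.10, limma adjusted p = 1.3e-05) and in intron 18 at +110521 bp (1.12 ± 0.29, limma adjusted p = 0.00204). The peak at +138419 bp, the strongest of the gene, had 89.3, 80.9 and 93.4 tags per 10 M in C26 medium 1 to 3, against 139, 61.4 and 72.2 in controls, so that as deposited its groups overlapped (0.044 ± 0.35). The higher peak named for Pink1 at -17184 bp (0.87 ± 0.19, limma adjusted p = 0.000293) lies in intron 3 of the neighbouring Cda, and that of Wipi1 at +17708 bp (0.73 ± 0.23, limma adjusted p = 0.0113) in its own intron 4. Lower distal peaks were Ulk1 at +7751 bp in intron 3 (-0.53 ± 0.10), Optn at -31111 bp (-0.49 ± 0.14), Map1lc3b at -4927 bp (-0.38 ± 0.12) and Lamp2 at -17274 bp (-0.42 ± 0.14), +25133 bp (-0.33 ± 0.12) and +17982 bp (-0.63 ± 0.25), with limma adjusted p-values of 9.4e-05, 0.00684, 0.0108, 0.019, 0.0408 and 0.0475 in that order.

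**Figure D5:**
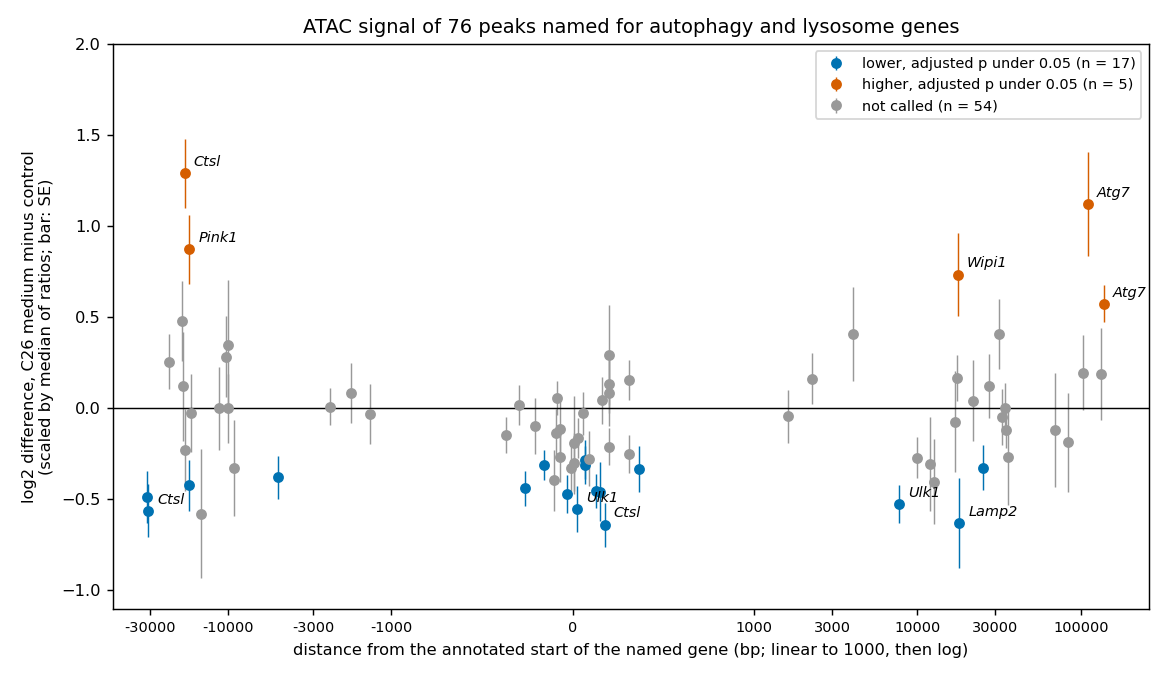
Scaled log2 difference, C26 medium minus control, of the 76 tested member peaks against the distance of the peak from the start of the named gene; bars give the SE, blue and orange mark an adjusted p under 0.05. The 10 called peaks within 1000 bp are all below 0, and the 5 called above 0 are distal.

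Set side by side, the RNA of LLC muscle and the chromatin of C2C12 cells in C26 medium differ in material and tumour, and no relation between them was computed. Ctsl and Ulk1 had RNA at an unadjusted p under 0.05 on the higher side in LLC muscle (log2 differences 0.50 and 0.37) and promoter peaks that fell in C26 medium (scaled -0.64 and -0.55). Sqstm1, Calcoco1, Map1lc3a and Map1lc3b had RNA differences of 0.64, 0.52, 0.41 and 0.34 and promoter peaks that were not called, and Gabarap, with an RNA difference of -0.022, had a promoter that fell.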

How the data were processed

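PolyA RNA of mouse muscle and open chromatin of C2C12 cells were measured in 12 libraries, 3 per group. The RNA values are FPKM that the authors made with HOMER, per the file headers, from mm10 RefSeq exons, taking both strands together and keeping 1 transcript for each gene. For ATAC the authors deposited a signal, the tags in each merged peak per 10 M tags of the library, with HOMER annotation in mm10, per the file headers. The submitters' processing notes also name HISAT2, Bowtie2, MACS2 and DESeq2; which of them did what, and in which version, is not given in the sources used here. All 34 genes and the wider and marker lists were chosen with earlier results of these data known.

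Values were put on a log2(value + 1) scale, on which differences of low genes come out too small. Genes averaging at least 1 FPKM and peaks averaging at least 5 tags (37358 of 38244) were tested across the whole tables in R 4.3.3 with limma 3.58.1 (eBayes, trend), by two-sided tests at a threshold of 0.05 after Benjamini-Hochberg adjustment. The SE printed belongs to limma's log2 difference, and means carry the sample SD. Library totals were read from the headers for ATAC. For the RNA they were inferred, as the total that best put low values on whole steps. Products of values, totals and, in the RNA, gene lengths fell on whole steps for 100% of the values checked, within a tolerance of 0.1. In the RNA these were 2519 to 2605 low values per library, which had also set the total, so the 100% is no independent check there. The reads so recovered went into edgeR 4.0.16 (quasi-likelihood). It called 0 genes and, of 37358 peaks, 6571 higher and 4783 lower. A second ATAC fit used median-of-ratios factors, 0.833, 0.778 and 0.884 for C26 medium 1 to 3 and 1.79, 0.845 and 1.15 for controls 1 to 3. No 2 libraries were identical, and 0 sample columns were left over.

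The rule for naming gave RNA values by library for the 12 members with the smallest p and Tfeb, and ATAC values by library for the 6 promoter peaks with the smallest p; the 10 peaks with the smallest p, the called peaks and all promoters are named. Other values by library, among them the RNA of Bnip3l, were added after they were seen; the 3 genes of each wider list with the smallest p are named. Promoter sequences are RefSeq's (GRCm38.p6). Alternatives were other pseudocounts and filters, TPM, other scalings, no trend, an adjusted p under 0.1, replicate numbers as a term and each library left out. Protein sequences were not analysed here. Plots used Python 3.11.15 with matplotlib 3.10.9.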

Additional observations from a re-analysis of the deposited data

How the results depend on the processing

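The count of 0 called members in the RNA held under every alternative run, as did that of 0 in each wider list. The count of 7 members higher at an unadjusted p under 0.05 was 4 with quantile normalization, 4 with the replicate block and 3 to 8 with 1 library left out. Replicate numbers did not pair the libraries: deviations of same-numbered libraries correlated at -0.091, 0.599 and -0.599 in the RNA and -0.011, 0.008 and -0.017 in the ATAC, and the block changed no other count by over 1.5 times. The 0 member peaks called higher as deposited became 5 when scaled by the median of ratios, 5 by quantile normalization, 5 with edgeR, 5 with edgeR scaled to reads in peaks, 5 with scaling to tags in nuclear peaks and 0 to 1 with 1 library left out. The 0 called lower became 17, 16, 16, 16 and 17 in the same order, 2 without trend, 10 at an adjusted p under 0.1 and 0 to 45 with 1 library left out, 45 being without control 2, where 53.1% of all peaks were called lower, and 7 without control 1 (7.01% of all). The median log2 difference of -0.63 became -0.12, -0.15, -0.11, -0.12 and -0.12 under the same 5 scalings, whose construction removes the shift common to all peaks, and ran from -0.84 without control 2 to -0.38 without control 1. On the scaled values the 5 higher peaks were 3 with a mean of at least 20, where fewer peaks are tested, and 4 to 6 with 1 library left out. The 17 lower peaks were 8 without trend and 10 to 16 with 1 library left out (10 without C26 medium 2, 11 without control 1 and 11 without control 3), and the median of -0.12 ran from -0.15 to -0.066, the last without control 2. Of the 22 peaks called after scaling 0 were called as deposited, and the alternatives meant here are those to the scaled fit alone. In each of these with a value 9 peaks kept the call (Ctsl at +176 and -18303 bp, both Ulk1 peaks, Gabarap, Bnip3l, both Atg7 peaks and Pink1 at -17184 bp). The other 13 lost it in at least 1, 48 times in all and with the direction kept each time. The cause was not tested. The median log2 difference of the RNA members, 0.073, was 0.047 with edgeR, 0.12 as TPM and 0.030 to 0.13 with 1 library left out. No called result changed direction; 14 of the 34 RNA differences, none of them called, changed sign in at least 1 fit without a library. The RNA libraries were of similar inferred depth (17.0 to 20.1 M tags), and none of the 34 genes was near the low-value filter.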

Other observations

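The 11 Atg7 peaks that were not tested lie between 13706 and 78767 bp before the start of the gene (chr6:114564115-114629583), and the annotation places all 11 in an IMPB_01 satellite repeat. In 9 of them all 6 libraries were listed at 0, and the highest value in any was 0.55 tags per 10 M, yet each was in 3 or more of the lists of peaks called per library, and 4 were in all 6. Of the 25 peaks of the whole file in such a repeat 20 are on chromosome 6 and 19 had a mean under 1, and 301 peaks of any kind had 0 in all libraries. Counting peaks per gene would therefore give Atg7 19 peaks, of which 8 reached the mean that the test required. With those 8 alone it would still have the most peaks of the 34 genes.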
